A study of Mus musculus with 7 samples.

Results

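Small RNA processing and Argonaute genes were followed in cells of the embryonic mouse cortex in which Trnp1, a nuclear protein of cortical progenitors, had been knocked down. The group holds 10 genes of 19938 measured: Drosha, Dgcr8, Xpo5, Dicer1, Tarbp2, Ago1, Ago2, Ago3, Ago4 and Tnrc6a. Each was read from an array probe set that names only that gene, the brightest over all 7 arrays where there were several, and all 10 were found. The tested samples were 3 Trnp1 knockdown samples, set against 4 control samples labelled WT. All came from strain C57BL/6, were electroporated on embryonic day 13 with constructs that also carried green fluorescent protein (GFP), and were sorted for GFP 24 h after transfection, at embryonic day 14. The labels do not say which construct the controls received, by what kind of RNA Trnp1 was lowered, or how many embryos a sample holds. The sex was not determined, and electroporated cells of the cortical wall are a mixture of progenitors and young neurons. Each sample was hybridised to 1 Affymetrix gene array, and all levels below are log2 values after RMA normalization.

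MicroRNAs start as hairpins in longer transcripts. In the nucleus the ribonuclease Drosha and its RNA-binding partner Dgcr8, together called the Microprocessor, cut the hairpin out, and Xpo5 (exportin 5) carries it to the cytoplasm. There Dicer1, held by the double-stranded RNA-binding protein Tarbp2, trims it to a short duplex, 1 strand of which is loaded into an Argonaute protein. Argonautes bind target messenger RNAs and, through the GW182 protein Tnrc6a and its paralogs, bring in the enzymes that shorten the poly(A) tail and remove the cap. In the developing mouse cortex, loss of Dicer1 is known to impair the survival and production of neurons.

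Some of these genes carry microRNA hairpins of their own. The Microprocessor is known to cut hairpins in the Dgcr8 messenger RNA itself, which keeps its own level in check, and the sequences are shown because Dgcr8 had the largest difference of the 10 genes. RefSeq (GRCm38.p6) places a mature microRNA inside 2 of the 10 genes, Dgcr8 and Xpo5. The Mir1306 hairpin lies within Dgcr8 at chr16:18284239-18284317, on the minus strand, and is printed 5′ to 3′ with its mature arms in capitals.
Mir1306 hairpin: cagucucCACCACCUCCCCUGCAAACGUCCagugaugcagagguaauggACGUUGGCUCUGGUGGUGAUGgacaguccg
The mature microRNAs of both genes follow, with the seed (bases 2 to 8, which pair with targets) in capitals. All 6 seeds differ.
mmu-miR-1306-5p: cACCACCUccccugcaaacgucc
mmu-miR-1306-3p: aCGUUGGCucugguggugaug
mmu-miR-3618-5p: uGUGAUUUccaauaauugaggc
mmu-miR-3618-3p: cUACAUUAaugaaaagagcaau
mmu-miR-693-5p: cAGCCACAuccgaaaguuuuc
mmu-miR-693-3p: gCAGCUUUcagauguggcuguaa
The first 4 lie in Dgcr8 and the last 2 in Xpo5. Of these hairpins only Mir693 had a probe set of its own that was used here. Its level was 3.37, 3.44 and 3.55 in the knockdown arrays and 3.44, 3.56, 3.37 and 3.19 in the control arrays, with groups that overlap (difference 0.06, SE 0.12). That probe set sits at percentile 19.9 of level among all genes, so it is among the dim ones.

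None of the 10 genes passed the test between knockdown and control. By limma with Benjamini-Hochberg adjustment, 0 of 10 had an adjusted p under 0.05, as did 0 of all 19938 genes (0%), and the lowest adjusted p among the 10 was 0.825. At an unadjusted p under 0.05, 0 of the 10 were higher and 0 lower, while over all genes 439 were higher (2.2%) and 719 lower (3.61%). These counts depended on the scaling and on single arrays: with equal array medians 183 genes were higher and 1507 lower, and with knockdown replicate 2 left out 882 and 1522. Equal array medians gave Xpo5 and Dgcr8 an unadjusted p of 0.0141 and 0.0351 by limma (both lower). Cyclic loess normalization gave Dicer1 and Tnrc6a 0.0403 and 0.0387 by limma (both higher). No adjusted p was under 0.05 in either. An unadjusted p under 0.05 by limma was counted over 12 alternative settings and 7 fits with 1 array left out. It came 5 times for Xpo5, 4 for Tnrc6a, 2 each for Dicer1 and Dgcr8, 1 for Ago2 and 0 for the others. The groups did not overlap for 1 of the 10, Dicer1, which was higher in every knockdown array, and for 0 in the lower direction. Over all genes 2.59% had groups apart with knockdown higher and 3.07% with knockdown lower. The differences of the 10 genes ran from -0.53 to 0.47 log2 units, with 7 positive and 3 negative and a median of 0.20, where the median over all genes was -0.001. The median of the 10 was 0.081 without knockdown replicate 3, and 0.091 with the array medians set equal, a scaling that moved the median of all genes to -0.11. Values are therefore given below by step of the pathway, without calling any of them a change.

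**Figure D1:**
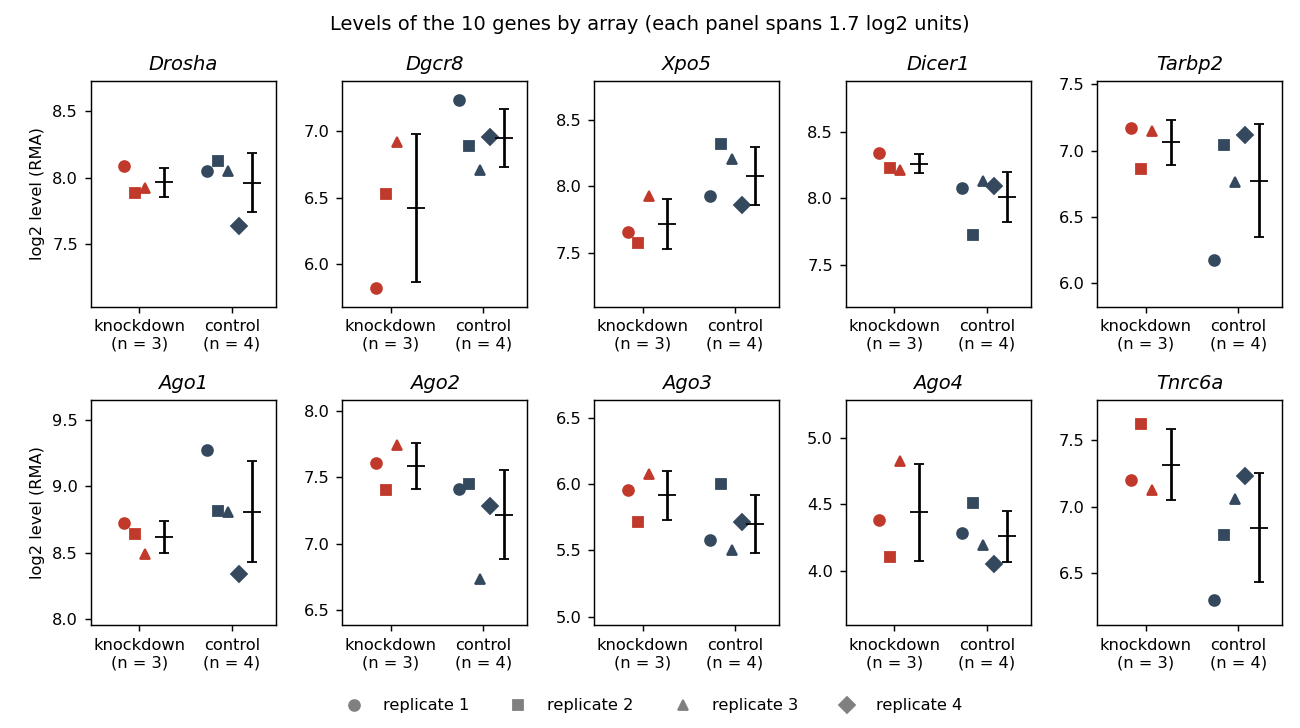
Log2 level of each of the 10 genes in the 3 knockdown arrays (red) and the 4 control arrays (dark blue), 1 symbol per array, with the group mean and SD in black. Each panel spans the same range of log2 units but is centred on its own gene. Dicer1 is the 1 gene whose knockdown arrays, from 8.21 upward, all sit above the control arrays, and Dgcr8 is widely spread among the knockdown arrays.

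Trnp1, the targeted gene, was read first as a check of the labels. Its level was 4.80, 4.85 and 4.55 in knockdown arrays and 5.07, 4.999, 5.24 and 5.22 in control arrays, so the groups did not overlap and the labelled knockdown arrays were the lower ones. Trnp1 differed by -0.40 (SE 0.12), with p = 0.0286 by a two-sided exact permutation test over the 35 ways to choose 3 of 7 arrays, the smallest p this design can give.

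The subunits of the Microprocessor come first in the pathway. Drosha, the ribonuclease, had 8.09, 7.89 and 7.92 in knockdown arrays and 8.05, 8.12, 8.05 and 7.64 in control arrays. The knockdown arrays lie inside the control range, and control replicate 4 is the low one. Means were 7.97 ± 0.109 (SD, n = 3) in knockdown and 7.96 ± 0.222 (SD, n = 4) in control, a difference of 0.0021 (SE 0.15, 95% interval -0.34 to 0.34). The sign of so small a difference turned with single arrays, and it was -0.11 without control replicate 4 and -0.06 without knockdown replicate 1.

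Dgcr8, which recognises the hairpin and stabilises Drosha, had 5.82, 6.53 and 6.92 in knockdown arrays and 7.24, 6.89, 6.71 and 6.96 in control arrays. Knockdown replicates 1 and 2 lie below every control array, whereas knockdown replicate 3 lies within the control range. The means were 6.42 ± 0.557 (SD, n = 3) in knockdown and 6.95 ± 0.219 (SD, n = 4) in control. The difference of -0.53 (SE 0.26, 95% interval -1.14 to 0.09) puts the knockdown signal at 69.4% of control (45.4% to 106%), with an unadjusted p of 0.0816 and an adjusted p of 0.825 by limma. Knockdown replicate 1 decided much of the size: the difference was -0.23 without it.

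Xpo5, the exporter, had 7.66, 7.57 and 7.93 in knockdown arrays and 7.93, 8.32, 8.21 and 7.86 in control arrays. Knockdown replicates 1 and 2 were below all control arrays, and knockdown replicate 3 equalled control replicate 1 and exceeded control replicate 4. Its difference of -0.36 (SE 0.16, 95% interval -0.73 to 0.01) was the one with the smallest unadjusted p among the 10 genes (0.0551, adjusted p = 0.825 by limma). It ranged from -0.46 to -0.28 with 1 array left out and was -0.23 after cyclic loess normalization of the arrays.

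Dicer1, the cytoplasmic ribonuclease, had 8.34, 8.23 and 8.21 in knockdown arrays and 8.08, 7.73, 8.13 and 8.09 in control arrays. The lowest knockdown array (8.21) lies just above the highest control array (8.13), and control replicate 2 stood below the rest of its group. Means were 8.26 ± 0.0705 (SD, n = 3) in knockdown and 8.01 ± 0.189 (SD, n = 4) in control, a difference of 0.25 (SE 0.13, 95% interval -0.05 to 0.56, adjusted p = 0.825 by limma). Without control replicate 2 the difference was 0.16. It was 0.39 after cyclic loess normalization and 0.15 with the array medians set equal.

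Tarbp2, the partner that helps Dicer1 hand the duplex to an Argonaute, had 7.17, 6.86 and 7.15 in knockdown arrays and 6.18, 7.04, 6.76 and 7.12 in control arrays. Control replicate 1 is the low array, and the remaining arrays of both groups overlap. The difference was 0.29 (SE 0.24, 95% interval -0.27 to 0.84), 0.088 when control replicate 1 was left out, and 0.50 when both control replicate 4 and knockdown replicate 2 were. A dimmer probe set that also names only Tarbp2 gave -0.02 (SE 0.21), too close to 0 for its sign to be read. Its mean level over the 7 arrays was 4.04, beside 6.90 for the brighter one. The mean of both probe sets gave a difference of 0.13. With equal array medians the brighter one gave 0.18.

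**Figure D2:**
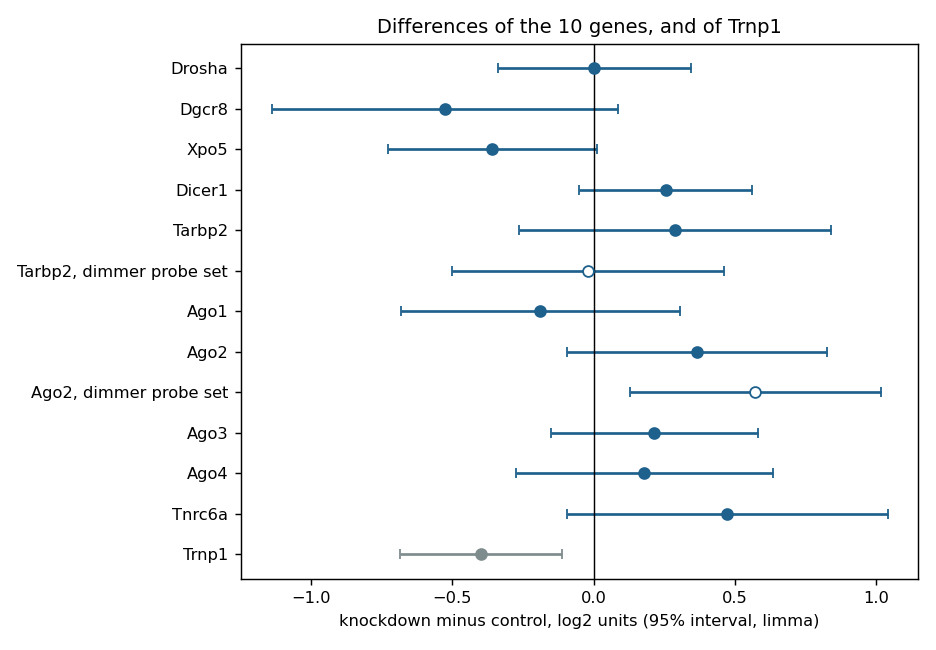
Log2 difference, knockdown minus control, with its 95% interval from limma for each of the 10 genes, for the dimmer probe sets of Tarbp2 and Ago2 (open circles) and for Trnp1 (grey). The intervals of all 10 genes cross 0, Xpo5 (-0.73 to 0.01) by the least, while that of the dimmer Ago2 probe set does not.

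The 4 Argonautes are close relatives, and Ago2 carries the main slicing activity in mammals. Ago3, Ago1 and Ago4 lie next to each other as consecutive protein-coding genes of chromosome 4 in RefSeq (GRCm38.p6), and Ago2 lies on another chromosome. Among the 4, Ago1 had a negative difference and the others positive ones.

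Ago2 had 7.61, 7.40 and 7.74 in knockdown arrays and 7.41, 7.45, 6.73 and 7.28 in control arrays. Knockdown replicate 2 lies within the control range, and control replicate 3 is the low array. The difference was 0.37 (SE 0.20, 95% interval -0.10 to 0.83, adjusted p = 0.825 by limma), and it was 0.20 without control replicate 3. The dimmer Ago2 probe set had 7.77, 7.58 and 7.50 in knockdown arrays and 6.77, 7.33, 6.76 and 7.32 in control arrays. There all knockdown arrays lie above all control arrays, with a difference of 0.57 (SE 0.19, 95% interval 0.13 to 1.02). Its unadjusted p was 0.0185, and the p adjusted over all probe sets was 0.819 by limma, so it did not pass either. Both probe sets of Ago2 thus gave positive differences, and their mean gave 0.47 with an unadjusted p of 0.0267 by limma.

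Ago1 had 8.73, 8.64 and 8.49 in knockdown arrays and 9.27, 8.81, 8.81 and 8.34 in control arrays. The knockdown arrays are close together and lie inside the wide control range. The difference was -0.19 (SE 0.21, 95% interval -0.68 to 0.31), and it rested on the outermost controls: it was -0.034 when control replicate 1 was left out and -0.34 when control replicate 4 was. It was also -0.12 without knockdown replicate 3, -0.29 with equal array medians, and -0.088 and -0.059 after a further quantile and a cyclic loess normalization.

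Ago3 had 5.96, 5.71 and 6.07 in knockdown arrays and 5.58, 6.00, 5.50 and 5.71 in control arrays, with overlapping groups and a difference of 0.22 (SE 0.16, 95% interval -0.15 to 0.58). It was 0.14 without knockdown replicate 3 and 0.11 with equal array medians. Ago4 had 4.39, 4.10 and 4.83 in knockdown arrays and 4.28, 4.51, 4.19 and 4.05 in control arrays. Knockdown replicate 3 is the highest of all 7 and knockdown replicate 2 among the lowest. The difference of 0.18 (SE 0.19, 95% interval -0.28 to 0.63) became -0.015 without knockdown replicate 3 and was 0.35 without knockdown replicate 2 and 0.11 without control replicate 4. It was also 0.073 with equal array medians and 0.080 after a further quantile normalization. Ago4 was the dimmest of the 10, at percentile 41.7 of level among all genes, where RMA compresses differences, while Ago1 was the brightest, at percentile 94.5. These percentiles tell how bright the probe sets are, and levels of different genes cannot be ranked from them.

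Tnrc6a, the GW182 protein that links Argonautes to the deadenylases, had 7.21, 7.62 and 7.12 in knockdown arrays and 6.30, 6.79, 7.06 and 7.23 in control arrays. All knockdown arrays lie above control replicates 1 to 3, and control replicate 4 lies among them. Means were 7.32 ± 0.266 (SD, n = 3) in knockdown and 6.84 ± 0.408 (SD, n = 4) in control. The difference of 0.47 (SE 0.24, 95% interval -0.09 to 1.04, adjusted p = 0.825 by limma) is the largest positive one of the 10 genes, or 1.39-fold. It was 0.29 without control replicate 1.

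**Figure D3:**
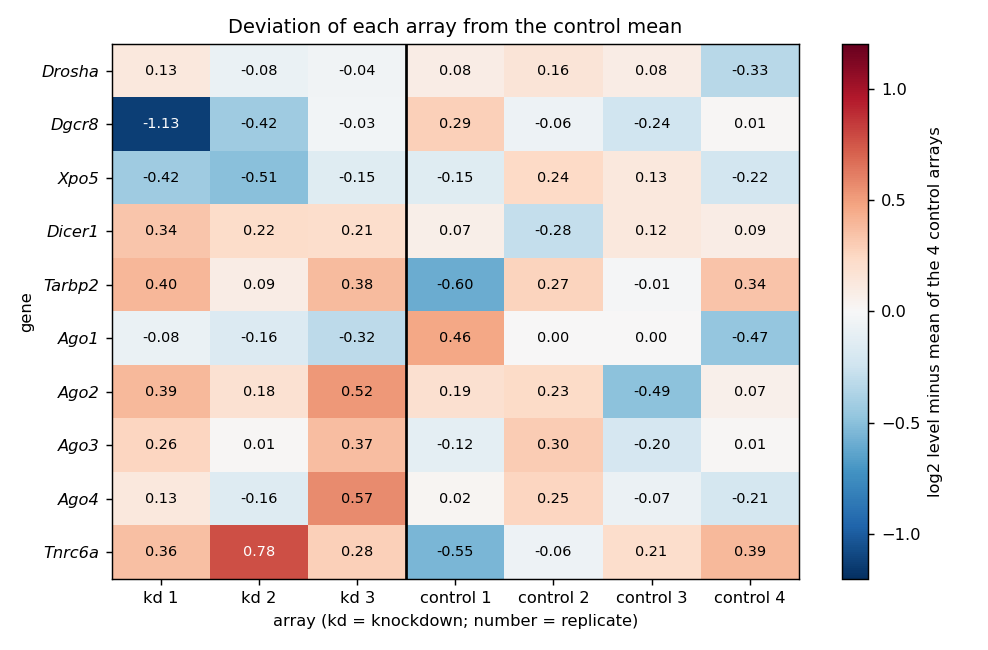
Log2 level of each of the 10 genes in each array minus the mean of the 4 control arrays, with knockdown arrays on the left. The most negative cell is Dgcr8 in knockdown replicate 1 (-1.13) and the most positive is Tnrc6a in knockdown replicate 2 (0.78).

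No array, knockdown or control, had all 10 genes on 1 side of the control mean. In knockdown replicates 1, 2 and 3, 7, 5 and 6 of the 10 lay above the control mean, and in the control arrays between 5 and 7 did. The member farthest below the control mean differed between knockdown arrays, being Dgcr8 in replicate 1 (-1.13), Xpo5 in replicate 2 (-0.51) and Ago1 in replicate 3 (-0.32). The member farthest above was Tarbp2 in replicate 1 (0.40), Tnrc6a in replicate 2 (0.78) and Ago4 in replicate 3 (0.57). Knockdown replicates 1 and 2 share the low Dgcr8 and Xpo5 values, which knockdown replicate 3 lacks.

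Dgcr8 and Tnrc6a varied most over the 7 arrays, with SDs of 0.455 and 0.414 log2 units. Genes whose centred level was nearest to that of Dgcr8 over the 7 arrays were Sh2b2, an adaptor of tyrosine kinase receptors, Dph2, an enzyme of diphthamide synthesis, and Lzts1. Their root mean square distances were 0.104, 0.112 and 0.115 log2 units. Nearest to Tnrc6a were the deubiquitinase Usp15 (0.116), Ercc6l2 (0.142) and the acyl-CoA thioesterase Acot7 (0.168). Among these, Dph2 had 4.46, 4.99 and 5.28 in knockdown arrays and 5.58, 5.30, 5.32 and 5.53 in control arrays. It was low in knockdown replicate 1 as Dgcr8 was, which follows from its choice by nearness over the same arrays.

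**Figure D4:**
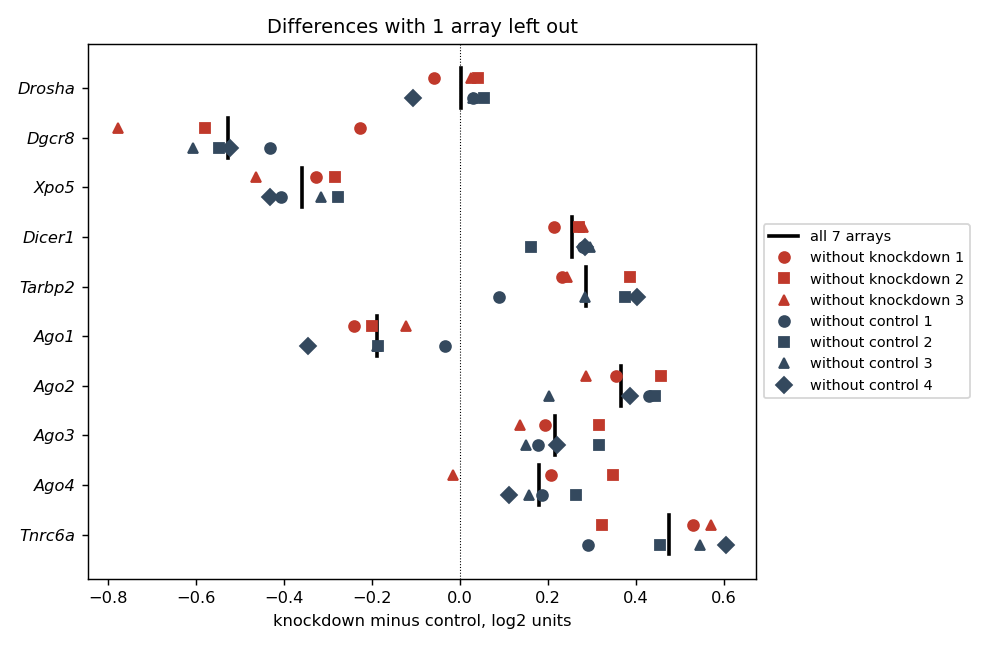
Log2 difference, knockdown minus control, of each of the 10 genes over all 7 arrays (black bar) and with 1 array left out (red for a knockdown array, dark blue for a control array). Dgcr8 ranges from -0.78 to -0.23, and Drosha and Ago4 are the genes with points on both sides of 0.

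The wider pathway was read from a list of 77 further genes in 7 roles, of which 75 were measured. Over all roles 0 of 75 passed over all genes by limma. At an unadjusted p under 0.05, 3 were higher and 5 lower (4.0% and 6.67% of the 75, beside 2.2% and 3.61% of all genes). The groups lay apart for 3 higher and 4 lower genes (4.0% and 5.33%, beside 2.59% and 3.07% of all genes), and the median difference was -0.036.

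The paralogs of Tnrc6a, which also bridge Argonautes and deadenylases, had differences of opposite sign. Tnrc6b had 7.46, 7.35 and 7.51 in knockdown arrays and 7.04, 7.06, 7.10 and 6.96 in control arrays. Every knockdown array lies above every control array, and the difference was 0.40 (SE 0.098, unadjusted p = 0.00446 and adjusted p = 0.825 by limma). Tnrc6c had 7.91, 7.95 and 8.15 in knockdown arrays and 8.50, 8.20, 8.47 and 8.49 in control arrays. Here every knockdown array lies below every control array, with a difference of -0.41 (SE 0.12, unadjusted p = 0.0125 and adjusted p = 0.825 by limma). With 1 array left out these ranged from 0.36 to 0.44 for Tnrc6b and from -0.48 to -0.36 for Tnrc6c. Of the GW182 proteins and other partners of the silencing complex, 5 of 10 were higher and 5 lower, and the third gene by p was Ajuba, a LIM-domain protein that binds Argonautes (0.50, SE 0.15). Its knockdown arrays (6.19, 5.94 and 6.34) all lay above its control arrays (5.38, 5.82, 5.68 and 5.76).

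Among 7 partners of the nuclear steps the median was -0.11, with 5 lower and 2 higher and none at an unadjusted p under 0.05 by limma. Ncbp1, a cap-binding protein, differed by -0.26 (SE 0.15), Srrt by -0.14 (SE 0.16) and the RNA-binding protein Khsrp by -0.12 (SE 0.14). With 1 array left out these ranged from -0.39 to -0.13, from -0.23 to -0.0083 and from -0.19 to -0.03, and the median of this role turned to 0.019 without knockdown replicate 1. Of 5 partners of export and of Dicer1, the RNA-editing enzyme Adarb1 differed by 0.41 (SE 0.16), with groups that lay apart (5.68, 5.59 and 5.87 in knockdown, 5.55, 4.99, 5.42 and 5.25 in control). The editing enzyme Adar, by contrast, differed by -0.31 (SE 0.17, and -0.20 without control replicate 3), and Ran, the GTPase that drives export, by -0.18 (SE 0.23, and from -0.34 to -0.038 with 1 array left out). The chaperones that open Argonautes for loading had a median of -0.20, with 6 of 7 lower, and of -0.067 after cyclic loess normalization. Fkbp4 differed by -0.54 (SE 0.20), Ptges3 by -0.32 (SE 0.19) and Dnaja2 by -0.20 (SE 0.12). These were -0.37, -0.19 and -0.11 without knockdown replicate 3, and -0.30 for Dnaja2 without knockdown replicate 2.

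The machinery that acts on bound messenger RNAs held 23 genes of deadenylation and decapping, 15 of them lower and 8 higher, with a median of -0.061. Cnot3, a subunit of the CCR4-NOT deadenylase, had 8.89, 9.04 and 8.93 in knockdown arrays and 9.52, 9.66, 9.20 and 9.24 in control arrays. Its groups did not overlap, and the difference was -0.45 (SE 0.14). The decapping cofactor Dcp1a differed by -0.61 (SE 0.22) and Lsm14a by -0.52 (SE 0.24, and -0.29 without knockdown replicate 3). The median of this role was 0.039 and 0.071 after a further quantile and a cyclic loess normalization, so its sign depended on the scaling.

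Among 9 genes that control let-7 or the turnover of microRNAs, 5 were higher and 4 lower. Dis3l2, the nuclease that destroys uridylated pre-let-7, had 6.37, 6.49 and 6.66 in knockdown arrays and 7.11, 6.77, 7.02 and 6.92 in control arrays, apart in every array, with a difference of -0.45 (SE 0.13, unadjusted p = 0.00892 by limma). Trim71, a regulator of early development that let-7 represses, differed by 0.25 (SE 0.11), and Lin28b, which blocks let-7 maturation, by 0.41 (SE 0.19, and 0.20 without knockdown replicate 2). Lin28b was dim, with mean levels of 3.80 in knockdown and 3.39 in control. The 14 Piwi pathway genes, which act in the germ line, had differences from -0.077 to 0.20, with none at an unadjusted p under 0.05 by limma. Tdrd5, Piwil4 and Ddx4 differed by 0.20, 0.09 and 0.089 at mean levels between 2.88 and 3.85 in either group. These were 0.13 for Tdrd5 without control replicate 4 and 0.32 without knockdown replicate 2, and 0.057 and 0.04 for Piwil4 and Ddx4 without control replicate 1.

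**Figure D5:**
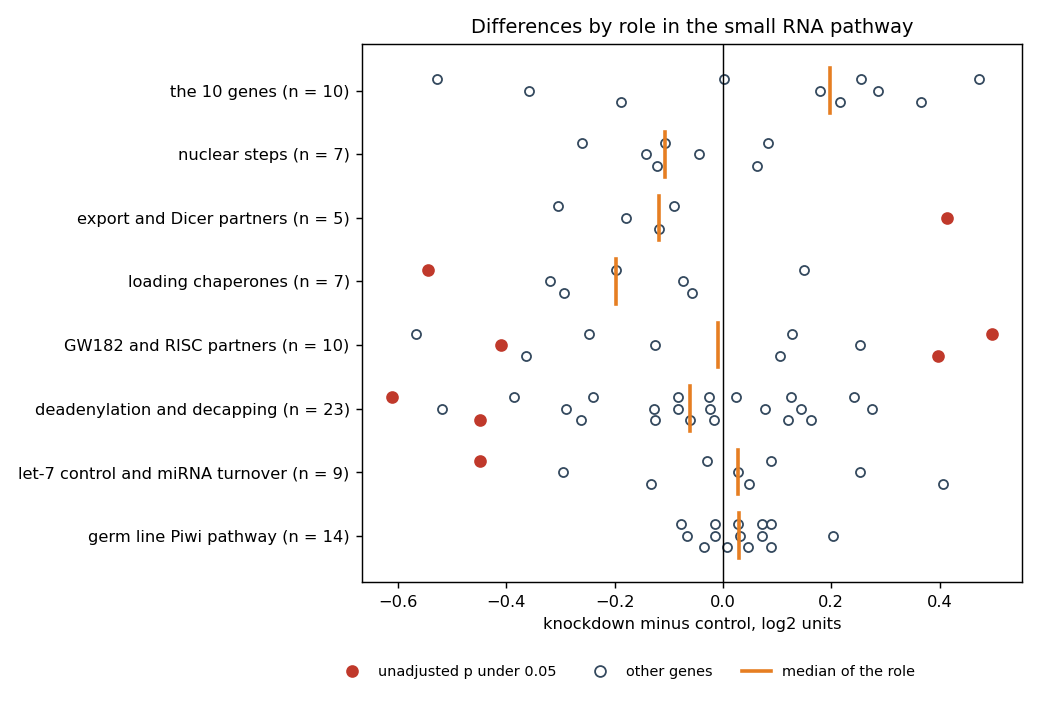
Log2 difference, knockdown minus control, of the 10 genes (top row) and of the measured genes of each role in the wider list, 1 point per gene, with the median of the row as an orange bar. Filled red points have an unadjusted p under 0.05 by limma. All 8 such points belong to the wider list and fall on both sides of 0, and Piwi pathway genes stay close to 0.

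Levels of marker genes of several cell types differed between arrays. In a bulk sample, fewer cells of a type and less RNA per cell cannot be told apart. Over 6 markers of GABA neurons the mean log2 level was 4.66 to 6.82 in knockdown arrays and 4.20 to 4.56 in control arrays. Knockdown replicate 2 was the highest (6.82), while knockdown replicates 1 and 3 stood at 4.90 and 4.66. All 6 markers had positive differences, beside 49.8% of all genes. Dlx5, a factor of their lineage, differed by 2.14 (SE 0.69), Dlx1 by 1.61 (SE 0.89) and Dlx2 by 1.34 (SE 0.72). The SDs of these 3 genes were wide in knockdown (1.72, 2.11 and 1.79) beside control (0.078, 0.57 and 0.19). Gad2 differed by 1.07 (SE 0.40), but Lhx6 only by 0.12 (SE 0.24) and Gad1 by 0.08 (SE 0.17). Over 6 endothelial and mural markers the mean log2 level was 5.06 to 7.04 in knockdown and 4.12 to 6.49 in control. Knockdown replicate 1 and control replicate 4 were highest. Microglial markers spanned 6.75 to 7.97 in knockdown and 5.86 to 8.64 in control, highest in control replicate 4. The 3 measured erythroid markers spanned 6.86 to 7.99 in knockdown and 6.29 to 7.43 in control. Meningeal markers spanned 4.26 to 5.20 in knockdown and 4.18 to 4.31 in control. All 6 endothelial and mural markers had positive differences (median 0.99), as did all 6 microglial (0.23), 3 erythroid (0.72) and 4 meningeal markers (0.31). None of these had an unadjusted p under 0.05 by limma, and 49.8% of all genes had positive differences. Markers of the labelled tissue were present in every array: radial glia at 8.38 to 8.76 in knockdown and 8.23 to 8.95 in control, intermediate progenitors at 8.92 to 9.52 in knockdown and 9.26 to 9.44 in control, cortical neurons at 8.86 to 9.40 in knockdown and 9.33 to 9.65 in control. Of the 8 cortical neuron markers 6 were lower (75%, beside 50.2% of all genes), and the median difference was -0.45. At an unadjusted p under 0.05 by limma, 3 were lower (37.5%, beside 3.61% of all genes). The groups lay apart with knockdown lower for 3 (37.5%, beside 3.07% of all genes). Neurod1, a factor of neuronal differentiation, differed by -1.45 (SE 0.17), and no gene had a smaller p (adjusted p = 0.736 by limma). Neurod6 differed by -0.71 (SE 0.13). Tubb3 differed by -0.50 (SE 0.28), Dcx by -0.52 (SE 0.19), Tbr1 by -0.39 (SE 0.24) and Bcl11b by -0.07 (SE 0.20). The 2 higher ones were Stmn2 (0.33, SE 0.37) and Map2 (0.11, SE 0.24). The dorsal factors Emx1 and Lhx2 averaged 8.65 to 9.01 in knockdown and 9.09 to 9.38 in control, with groups that lay apart. With both control replicate 4 and knockdown replicate 2 left out, the median difference of the 10 genes was 0.29, with 4 negative, and the lowest adjusted p among them was 0.476 by limma. Ago1 and Ago4 then differed by -0.36 and 0.28. The part of these cells in the differences of single genes was not tested.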

How the data were processed

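The authors deposited log2 expression values per probe set, with RMA as the summary method (Expression Console 1.2, according to the submitters' processing notes). RMA subtracts background, equalises probe distributions between arrays and condenses probes to 1 value, so differences at low signal come out too small. The deposited probe set values still differed in array median. It was 4.51, 4.47 and 4.61 in knockdown arrays and 4.45, 4.44, 4.40 and 4.40 in control arrays, higher in every knockdown array. No source used here names a genome build for the array, so no coordinates of array features are printed. The position printed for a hairpin is that of RefSeq (GRCm38.p6). Of 35556 probe sets, 21789 carried 1 gene symbol in the platform annotation, 1621 several and 12146 none. Symbols were updated through Entrez identifiers in RefSeq (GRCm38.p6, 21698 matched), giving 19938 genes.

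Knockdown was compared with control across all genes by limma 3.58.1 in R 4.3.3 (lmFit, eBayes, 5 residual degrees of freedom, no covariates, two-sided), with Benjamini-Hochberg adjustment over all genes at 0.05. Differences are knockdown minus control in log2 units, and a group is apart where no array of it lies within the range of the other. Replicates are labelled biological, and the number of arrays limits precision. Same-numbered knockdown and control arrays were not paired in the fit, since the labels do not say that a number marks a shared litter or day. The correlations of their deviations were 0.028, -0.051 and 0.072, and so few arrays cannot settle whether they were paired. The 10 genes, the role lists and the marker lists were chosen with earlier results of these data known. Genes named beside the 10 and Trnp1 are those with the 3 smallest p in each role, the 3 nearest in pattern to the 2 most variable of the 10, and cell type markers. For the markers the rule was the 2 of highest mean level in each list, which entered the check for a far control array. Not all of these are printed. All measured GABA and cortical neuron markers are given, which goes beyond that rule.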

Additional observations from a re-analysis of the deposited data

Results flagged for a closer look

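In the control group, 1 array stood far from the other 3 for 11 of the 65 gene and marker list values examined, measured as its gap to the nearest array over the range of the group. Chance gives about 5% of such groups where the values are independent. These are not, since genes of like pattern were picked over the same arrays, and Emx1 and Lhx2 enter singly and as their mean. The 11 of 65 therefore cannot be set against that share. Among the 10 genes these were Dicer1, low in control replicate 2 (7.73, the others 8.08 to 8.13, gap 0.874 of the range), and Drosha, low in control replicate 4 (7.64, the others 8.05 to 8.12, gap 0.848). In the wider list, Adar was high in control replicate 3 (6.83, the others 6.41 to 6.41, gap 0.991), Tnrc6c was low in control replicate 2 (8.20, the others 8.47 to 8.50, gap 0.891) and Piwil4 was low in control replicate 1 (3.08, the others 3.20 to 3.21, gap 0.940). Genes of like pattern showed it in control replicate 1, Sh2b2 as high (6.44, gap 0.995) and Ercc6l2 as low (3.69, gap 0.836). Of the tissue markers, Tubb3 was low in control replicate 4 (10.5, gap 0.864), Lhx2 was high in control replicate 1 (10.9, gap 0.860, and likewise the mean of Emx1 and Lhx2, gap 0.860), and Emx1 was high in control replicate 2 (7.91, the others 7.85 each, gap 1).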

How the results depend on the processing

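Under every alternative that kept the adjusted threshold, 0 genes passed over all genes, also at an adjusted p under 0.1, while 1158 had an unadjusted p under 0.05 over all arrays. Of 189 values of the 10 genes under the alternatives, 182 kept their sign and 0 passed. Drosha turned negative with array weights (-0.035), equal array medians (-0.10), the replicate block (-0.11), control replicate 4 and knockdown replicate 2 left out together (-0.068), without knockdown replicate 1 (-0.060) and without control replicate 4 (-0.11). It ranged from -0.11 to 0.055 with 1 array left out. Ago4 turned to -0.015 without knockdown replicate 3, and ranged up to 0.35 without knockdown replicate 2. The cause was not tested. Equal array medians moved the median of all genes by -0.11 log2 units, and the median of the 10 genes to 0.091. It was 0.081 without knockdown replicate 3. With the replicate block, which only shares numbers, Trnp1 differed by -0.37 and 0 genes passed, with 644 higher and 842 lower at an unadjusted p under 0.05. Control replicate 4 has no partner and drops out of that fit, so the like fit without a block is the one without control replicate 4, which gave 598 and 721. The Trnp1 difference ranged from -0.46 to -0.31 with 1 array left out. Several role medians of the wider list changed sign: the nuclear steps to 0.0075 after cyclic loess normalization and 0.019 without knockdown replicate 1, deadenylation and decapping to 0.042 without knockdown replicate 3, let-7 control to -0.088 without knockdown replicate 3, and Piwi genes to -0.076 with equal array medians. Leaving out control replicate 4 with knockdown replicate 2 was chosen after the marker levels were seen. Ago4 had no value with the dimmest 50% left out.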
